A study of Mus musculus with 12 samples.

Results

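The matrix metalloproteinases (MMPs), their tissue inhibitors (TIMPs), the ADAMTS proteases and the protease-free ADAMTS-like proteins were described in white adipose tissue RNA. Members were the genes whose symbol begins with Mmp, Timp, Adamts or Adamtsl followed by a digit and that had a read in at least one fat depot. The pattern matched 51 of the 27179 genes, and 49 were members: 21 MMPs, all 4 TIMPs, 19 ADAMTS genes and 5 ADAMTS-like genes. Mmp1a and Mmp1b had no read in either depot and were left out. The members just inside the rule were Mmp20, with 1 read over the 6 inguinal libraries, and Mmp24, with 1 read over the 6 epididymal libraries.

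The tissues were inguinal (iWAT, subcutaneous) and epididymal (eWAT, visceral) white adipose tissue of C57/BL6 mice, adult by the study's methods. No mutation or transgene is named in the labels. All mice received 3 subcutaneous injections over 10 days on chow and then 5 injections over 2 weeks on a high-fat diet (HFD). In the saline groups the HFD injections were saline. In the GIP groups each was 2 pmol/kg of (D-Ala2)GIP[Lys37PAL], a palmitoylated long-acting analog of the incretin hormone GIP, and the last chow injection was already the analog. Each depot had 3 saline and 3 GIP samples, 12 poly(A) RNA libraries in all. The labels give no ages and do not say whether the depots came from the same mice.

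The response to the analog was not analysed here. The 6 per-library columns of each table carry names that match no sample label, and the authors' own comparison of the treatments was not used. The level of each gene in each depot was described, as the authors' average log2 CPM (CPM, read counts scaled to a common library total). Each average covers the 6 libraries of a table, both treatments together. The per-library columns were used in no step, and the averages carry no spread between mice, so no difference between depots was tested here or set against replicate error. The 2 tables were normalized separately. In each table the lowest value belongs to genes with no read, and low values rise from it in steps of whole reads. These steps gave the reads implied behind each average, with an implied mean library of about 14100000 reads in iWAT and 10100000 reads in eWAT. The steps were checked only for genes with 1 to 5 implied reads, so larger read totals are estimates. Intervals given for a difference are exact binomial 95% intervals of the implied reads and cover counting error only. In bulk tissue, fewer cells of a type and less RNA per cell cannot be told apart.

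MMPs are zinc proteases that cut collagens, basement membrane and other extracellular proteins; most are secreted as inactive proenzymes, and some are held at the cell membrane. TIMPs bind the active site of MMPs and, to differing degrees, of ADAMTS and ADAM proteases. ADAMTS enzymes are secreted proteases with thrombospondin repeats that cut proteoglycans such as versican or trim procollagens, and ADAMTS-like proteins resemble them without the protease domain and bind the fibrillin microfibrils. In white fat these families remodel the matrix around adipocytes and vessels as the tissue expands.

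Promoter sequences are shown for genes of the MMP cluster on chromosome 9. It was chosen because the members with the widest depot gap, Mmp3 and Mmp10, lie there, as does Mmp13, which had little gap. The cluster holds 10 MMP genes within 427 kb (chr9:7272514-7699585, GRCm38), in the order Mmp13, Mmp12, Mmp1b, Mmp3, Mmp1a, Mmp10, Mmp8, Mmp27, Mmp20 and Mmp7. All but Mmp1b lie on the plus strand. Gene coordinates here are those of GENCODE vM21 on GRCm38. Each line gives the 120 bases before a RefSeq transcription start (GRCm38.p6, plus strand, 5′ to 3′). Capitals mark the AP-1 motif, TGAGTCA or its reverse complement TGACTCA, and the TATA motif TATAAA on the gene's strand. AP-1 is the Fos-Jun family of transcription factors, long known at the promoters of stromelysin and collagenase genes. The lines are, in turn, Mmp3 (chr9:7445702-7445821), Mmp10 (chr9:7502222-7502341), Mmp13 (chr9:7272394-7272513), the second of the Mmp12 starts (chr9:7347254-7347373) and Mmp27 (chr9:7571276-7571395).
Mmp3: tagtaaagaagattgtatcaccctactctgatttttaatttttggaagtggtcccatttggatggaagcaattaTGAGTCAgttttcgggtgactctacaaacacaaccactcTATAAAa
Mmp10: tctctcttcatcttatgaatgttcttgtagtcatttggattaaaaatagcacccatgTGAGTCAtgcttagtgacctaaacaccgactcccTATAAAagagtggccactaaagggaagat
Mmp13: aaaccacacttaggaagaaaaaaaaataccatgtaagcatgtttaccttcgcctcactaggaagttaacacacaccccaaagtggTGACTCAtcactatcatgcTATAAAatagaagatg
Mmp12: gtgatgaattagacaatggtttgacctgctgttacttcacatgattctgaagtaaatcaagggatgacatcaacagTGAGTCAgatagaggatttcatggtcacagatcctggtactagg
Mmp27: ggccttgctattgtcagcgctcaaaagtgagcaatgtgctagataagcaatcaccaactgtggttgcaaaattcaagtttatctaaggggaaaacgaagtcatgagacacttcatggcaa

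In Mmp3 the AP-1 motif began 46 bases and the TATA motif 7 bases before the start, with 32 bases between them. In Mmp10 the distances were 63 and 29 bases, with 27 between, and in Mmp13 they were 35 and 16 bases, with 12 between. The Mmp12 motif began 44 bases before that start, and its TATAAA lay after the start. Mmp27 had neither motif. In windows from 250 bases before to 50 bases after a start, 5 of the 34 members with a window held the AP-1 motif (Mmp3, Mmp7, Mmp10, Mmp12 and Mmp13), against 5.95% of 27025 genes. TATAAA was found in 9 of the 34, against 9.77% of all genes. The same 5 MMP genes held both motifs in 1 window, as did 0.736% of all genes. With Mmp1a and Mmp1b, 7 of the 10 cluster genes held both, and 0 of the pattern's genes outside the cluster with a window held the AP-1 motif. A match describes letters and not a bound site. No window was given for 15 members, among them Mmp2, Mmp9 and Adamts5.

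Most members were expressed in both depots, with the inhibitor Timp3 and the protease Adamts5 at the high end of each. Reads were found for 47 members in iWAT and 48 in eWAT. In each depot 33 members reached an average CPM of 1, 30 of them in both, 36 in at least one, and the other 13 in neither. The families contributed unequal amounts to the summed CPM of the members, which was 1394 in iWAT and 1841 in eWAT. TIMPs made up 45.9% of it in iWAT and 47.3% in eWAT. ADAMTS genes made up 28.5% in iWAT and 40.5% in eWAT, MMPs 23.1% and 9.9%, and ADAMTS-like genes 2.51% and 2.32%. Longer transcripts give more reads. Per kilobase of exon (GENCODE vM21), TIMPs made up 36.8% of the summed level in iWAT and 50.4% in eWAT, and MMPs 43.2% and 18.9%. On either scale the MMP share was higher in iWAT and the ADAMTS share higher in eWAT. Single genes made up much of these sums. The MMP sum was 321.5 CPM in iWAT and 182.2 CPM in eWAT, with Mmp2 at 143 and 50.4 CPM and Mmp3 at 60.3 and 1.46 CPM. The ADAMTS sum was 397.6 CPM in iWAT and 744.9 CPM in eWAT, with Adamts5 at 244 and 540 CPM.

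**Figure D1:**
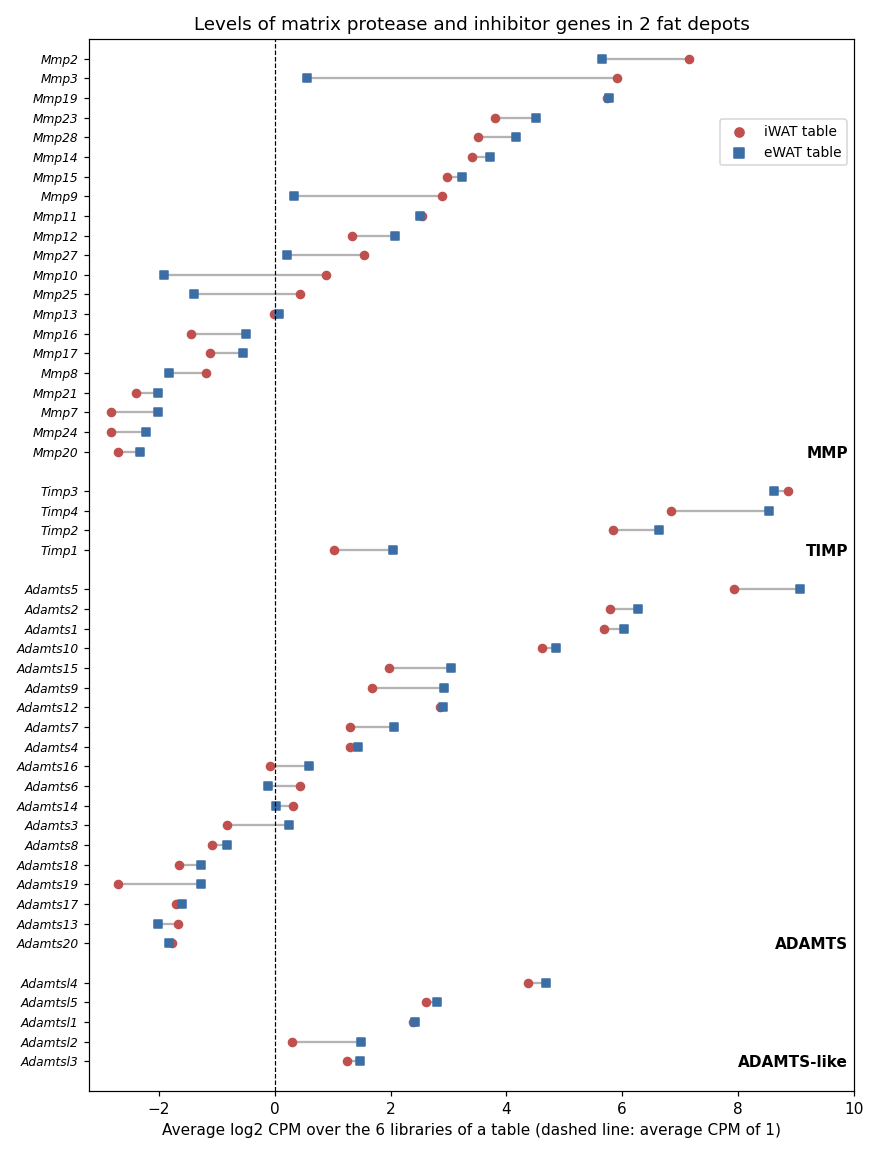
Average log2 CPM of each of the 49 members over the 6 libraries of a table (circles, iWAT; squares, eWAT), grouped by family and ordered by the higher level; the dashed line is an average CPM of 1. Timp3 and Adamts5 stand at the high end in both depots, and the long bars of Mmp3, Mmp10 and Mmp9 point to higher levels in iWAT.

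Among the inhibitors, Timp3 (chr10:86300372-86349506), which binds the matrix and is the TIMP with the widest reach over ADAMTS proteases, had the highest level of the members in iWAT per read and per length. Its average was 8.87 log2 CPM (467 CPM) in iWAT and 8.63 (397 CPM) in eWAT, a difference of 0.23. Per kilobase this was 57.3 CPM in iWAT and 48.8 CPM in eWAT. Timp4 (chr6:115241892-115252205), a TIMP known for its restricted expression, with heart and fat among its sites, averaged 6.84 (114 CPM) in iWAT and 8.53 (371 CPM) in eWAT. The Timp4 level was thus 3.25-fold higher in eWAT, a difference of -1.70 (iWAT minus eWAT; counting interval -1.73 to -1.66), and per kilobase it was the highest of all members there, at 62.9 CPM. Timp2, which also takes part in the activation of pro-MMP2 by the membrane protease MMP14, averaged 5.84 in iWAT and 6.63 in eWAT, or 57.4 and 99.3 CPM. Timp1, an inducible TIMP, was the low member of the family, at 1.02 in iWAT (160 reads) and 2.04 in eWAT (236 reads), 2.02-fold higher in eWAT. Of the 4 TIMPs, Timp3 alone had a higher average in iWAT, and relative to the progenitor marker list described below its difference turned to -0.10.

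The TIMP loci share their position with synapsin genes. Timp1, Timp3 and Timp4 lie inside Syn1, Syn3 and Syn2, each on the opposite strand. Timp3 shares 1733 exon bases with Syn3, 21.3% of its exon length, while Timp4 shares 90 bases with Syn2 and Timp1 none with Syn1. Syn3 averaged 1.04 in iWAT and 1.20 in eWAT, far below Timp3 on the same log2 CPM scale. Whether reads were counted by strand is not given in the sources used here, so reads of the shared bases cannot be told apart.

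The gelatinases cut denatured collagen and type IV collagen of basement membranes. Mmp2 (chr8:92827291-92853420), the broadly expressed gelatinase of stromal cells, averaged 7.16 (143 CPM) in iWAT and 5.65 (50.4 CPM) in eWAT, 2.83-fold higher in iWAT, from 12070 and 3034 reads. Per kilobase, Mmp2 was second to Timp3 in iWAT, at 42.3 CPM, and stood at 14.9 CPM in eWAT. Mmp9 (chr2:164940780-164955850), the gelatinase of neutrophils, macrophages and other cells on stimulation, averaged 2.89 in iWAT and 0.34 in eWAT, a difference of 2.56 or 5.88-fold (617 and 64 reads). Both gelatinases were thus higher in iWAT, but Mmp2 was abundant in both depots and Mmp9 was near the expression limit in eWAT. Mmp14, the membrane-type MMP that activates pro-MMP2 at the cell surface, had a difference of -0.31, with averages of 3.41 in iWAT and 3.72 in eWAT.

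The stromelysins held the widest gap of all members. Mmp3 (stromelysin 1, chr9:7445822-7455975), which cuts proteoglycans, fibronectin and laminin and activates other proMMPs, averaged 5.91 (60.3 CPM, 5093 reads) in iWAT and 0.55 (1.46 CPM, 76 reads) in eWAT. The difference of 5.37 is 41.2-fold as deposited, and 47.6-fold (5.57, counting interval 5.25 to 5.93) once the prior count of 2 reads that edgeR adds to each library is taken off. Among all genes higher in iWAT, Mmp3 ranked 27. Per kilobase, Mmp3 reached 33.4 CPM in iWAT, a level that only Timp3 and Mmp2 exceeded there, and 0.701 CPM in eWAT.

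Mmp10 (stromelysin 2), a close relative of Mmp3, averaged 0.89 (145 reads) in iWAT and -1.91 (4 reads) in eWAT. Its difference was 2.80 as deposited and 4.68 with the prior count taken off, with a counting interval of 3.31 to 6.59, so its size rests on 4 reads. Transcripts of Mmp3 and Mmp10 share 170 stretches of 40 bases, the read length, which is 10.1% of those in Mmp10. How the counting treated reads that fit both genes is not given in the sources used here, and the Mmp10 level is uncertain for that reason. Mmp11 (stromelysin 3), which despite its name acts poorly on most matrix proteins, averaged 2.54 in iWAT and 2.51 in eWAT. Mmp12, the macrophage elastase, went the other way, at 1.34 in iWAT and 2.08 in eWAT, 1.67-fold higher in eWAT.

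The size of the gap varied along the cluster: from Mmp3 to Mmp27 each gene with reads was higher in iWAT, and Mmp13 and Mmp12 before them were not. Mmp13, a collagenase, averaged -0.01 in iWAT and 0.08 in eWAT, and Mmp8, the neutrophil collagenase, had 25 and 5 reads, with a difference of 0.64 as deposited and of 1.85 with the prior count taken off (counting interval 0.42 to 3.58). Mmp27, a little-studied MMP, averaged 1.54 in iWAT and 0.21 in eWAT, a difference of 1.33 or 2.52-fold. Mmp7 and Mmp20 had at most 3 reads in either depot. Of the members whose windows held both motifs, Mmp3 differed by 5.37, Mmp10 by 2.80, Mmp13 by -0.09 and Mmp12 by -0.74, the remaining one, Mmp7, had 0 and 3 reads, and Mmp27, which held neither, differed by 1.33. The part of the motifs in these differences was not tested.

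**Figure D2:**
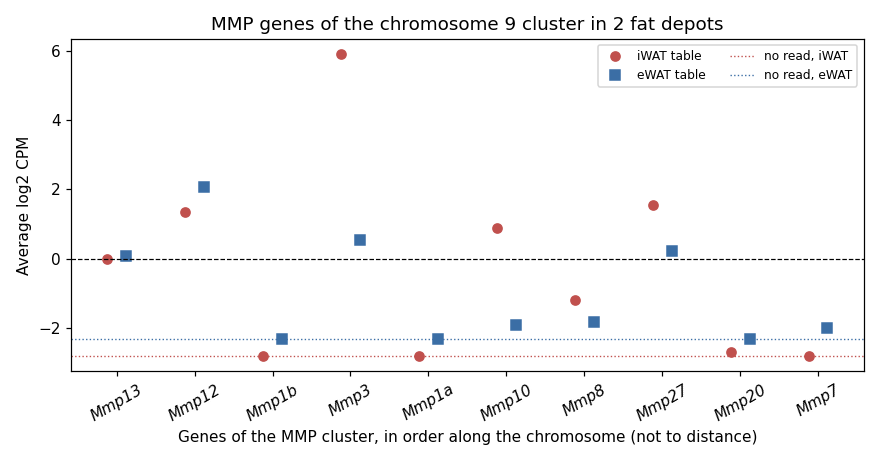
Average log2 CPM of the 10 MMP genes of the chromosome 9 cluster in genomic order, not to distance (circles, iWAT; squares, eWAT); dotted lines mark a gene with no read in each table and the dashed line an average CPM of 1. Mmp3 stands at 5.91 in iWAT and 0.55 in eWAT, while Mmp13 is near 0 in both and Mmp1a and Mmp1b lie on the dotted lines.

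Of the remaining MMPs, Mmp25, a membrane-type MMP first found in leukocytes, was higher in iWAT, at 0.43 (102 reads) against -1.40 (11 reads). Its difference of 1.83 became 2.74 with the prior count taken off. Mmp19 was level in the depots, at 5.73 in iWAT and 5.77 in eWAT, and per kilobase it was among the most abundant MMPs, at 14.9 and 15.4 CPM. It shares 789 exon bases (22.3%) with Tmem198b on the opposite strand and is uncertain to that extent. Mmp23 averaged 3.81 and 4.51, and Mmp28 (epilysin) 3.51 and 4.16, both lower in iWAT, and Mmp15, a membrane-type MMP, 2.97 and 3.24. Mmp16, Mmp17, Mmp21 and Mmp24 stayed under an average CPM of 1 in both depots. Among 14 MMPs with an average CPM of 1 in either depot, 7 were above 0 and 7 below, with a median difference of -0.01 and a range of -0.74 to 5.37.

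Adamts5 (chr16:85856173-85901828), an aggrecanase and versicanase, was the most abundant member in eWAT per read. Its average was 7.93 (244 CPM) in iWAT and 9.08 (540 CPM) in eWAT, a difference of -1.15 or 2.21-fold, which placed it at percentile 99.1 of the genes with reads in eWAT. Per kilobase it stood at 22.6 CPM in iWAT and 50 CPM in eWAT, where Timp4 was above it. Adamts1, its neighbour 53.1 kb away on chromosome 16 and also a versicanase, averaged 5.68 in iWAT and 6.03 in eWAT. Adamts9 and Adamts15, further proteoglycanases, averaged 1.68 and 1.98 in iWAT and 2.93 and 3.04 in eWAT, each more than 2-fold higher in eWAT (2.38-fold and 2.08-fold). Adamts4, the other classical aggrecanase, averaged 1.30 in iWAT and 1.43 in eWAT. All 5 proteoglycanases with an average CPM of 1 had a lower average in iWAT, with a median difference of -1.05. The counting interval of Adamts4 covered both directions (-0.42 to 0.21). Adamts8 and Adamts20 were under that limit in both depots.

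The procollagen N-proteinases remove the N-propeptide of fibrillar collagens. Adamts2, the main enzyme for type I collagen in skin, averaged 5.79 in iWAT and 6.27 in eWAT, a difference of -0.48. Adamts3 averaged -0.82 in iWAT (36 reads) and 0.24 in eWAT (59 reads). Its difference was -1.07 as deposited and -1.22 with the prior count taken off (counting interval -1.84 to -0.58). Adamts14 averaged 0.31 and 0.03, higher in iWAT by 0.28, which became -0.05 relative to the progenitor list. The 9 other ADAMTS genes were led by Adamts10, a fibrillin-binding member, at 4.62 in iWAT and 4.86 in eWAT; the 5 of them with an average CPM of 1 in either depot ranged from -0.76 (Adamts7) to 0.54 (Adamts6), with Adamts12 at -0.06 and Adamts16 at -0.67. Adamts13, the von Willebrand factor protease made mainly in liver, Adamts17, Adamts18 and Adamts19 stayed under that limit, and Adamts19 had 1 read in iWAT and 13 in eWAT. The 5 ADAMTS-like genes all had lower averages in iWAT, with differences of -1.19 to -0.04. Adamtsl4, linked to fibrillin microfibrils of the eye, led them at 4.38 and 4.69, and Adamtsl2, which binds fibrillin and LTBP1, had the widest gap, at 0.30 and 1.49. Adamtsl1, Adamtsl3 and Adamtsl5 differed by -0.04, -0.22 and -0.19. Their counting intervals covered both directions (-0.24 to 0.19, -0.52 to 0.11 and -0.37 to 0.01), so counting error alone leaves their direction undecided.

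Counted over the 36 members with an average CPM of 1 in either depot, 6 (16.7%) were at least 2-fold higher in iWAT: Mmp3, Mmp10, Mmp9, Mmp25, Mmp2 and Mmp27. The same threshold took 7.25% of all 14297 such genes. Another 7 members (19.4%) were at least 2-fold higher in eWAT, Timp4, Adamts9, Adamtsl2, Adamts5, Adamts3, Adamts15 and Timp1, against 4.48% of all genes. All 6 of the first group were MMPs and none of the 7 was. The median difference was -0.25 over the members, with 10 above 0 and 26 below, against 0.02 over all 14297 genes, of which 51.8% were above 0. The value of no read was -2.82 in iWAT and -2.33 in eWAT, which draws differences at low levels toward eWAT. With the prior count taken off, 0 of the 34 members still at the expression limit changed sign. Some counting intervals covered both directions, such as those of Mmp13 (-0.55 to 0.53), Mmp19 (-0.11 to 0.02) and Mmp11 (-0.16 to 0.25). The median was -0.90 for TIMPs, -0.48 for ADAMTS genes and -0.22 for ADAMTS-like genes. Timp1 and Adamts15, at -1.02 and -1.05, lay close to the 2-fold threshold. The counting intervals, taken with the prior count off, reached under 2-fold for Timp1 (-1.35 to -0.75) and Adamts15 (-1.28 to -0.87). They also did so for Adamtsl2 (-1.64 to -0.87) and Adamts3 (-1.84 to -0.58). Those of the other called members, in both directions, lay beyond 2-fold.

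**Figure D3:**
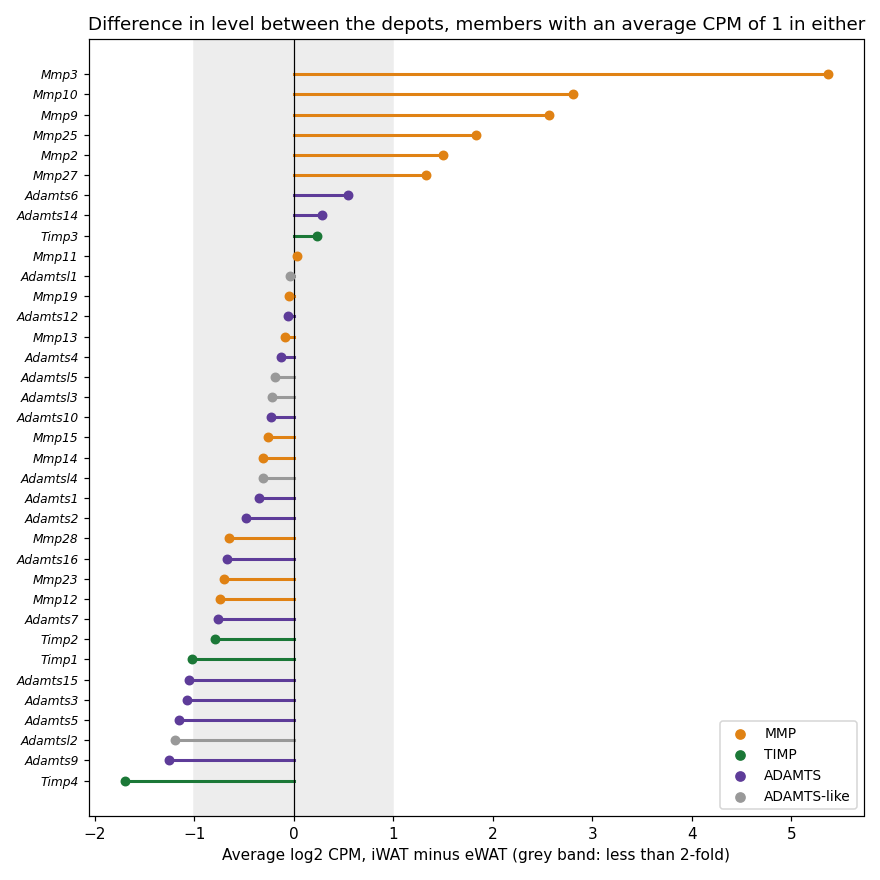
Difference in average log2 CPM, iWAT minus eWAT, of the 36 members with an average CPM of 1 in either depot, coloured by family; the grey band is less than 2-fold. The 6 members to the right of the band are MMPs, and the 7 to its left are TIMP, ADAMTS and ADAMTS-like genes.

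Genes of the wider proteolytic network were compared at the same limits. In the plasminogen system, which activates several proMMPs, 1 of 7 genes with an average CPM of 1 in either depot was at least 2-fold higher in iWAT (Serpini1, an inhibitor of tissue plasminogen activator, 2.49-fold) and 1 in eWAT (Serpinb2, an inhibitor of urokinase, 2.28-fold), with a median of 0.26. Of 20 other pericellular proteases and cofactors, only Pcolce, the enhancer of procollagen C-proteinase, passed 2-fold (1.15, higher in iWAT). Of 8 cathepsins, Ctsk, a collagen-cutting enzyme (1.11), and Ctss (1.07) were higher in iWAT. Of 11 other inhibitors and regulators, 3 were higher in eWAT and 0 in iWAT. The 3 were Spock2 and Spock3, which encode testican proteoglycans, at -1.90 and -2.38, and Tfpi, which inhibits the start of coagulation, at -1.06. Reck, a membrane-anchored inhibitor of MMPs, differed by 0.51, with averages of 2.73 in iWAT and 2.22 in eWAT.

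Genes encoding substrates differed in both directions. Of 20, 2 were at least 2-fold higher in iWAT and 4 in eWAT, with a median of -0.45. Thbs1, a matricellular thrombospondin, averaged 3.44 in iWAT and 6.19 in eWAT, and the elastic fibre genes Eln and Fbn1 differed by -1.25 and -1.24. Hspg2, which encodes the basement membrane proteoglycan perlecan, differed by -1.25. Comp and Thbs2 were the genes higher in iWAT, by 1.92 and 1.53. The interstitial collagen genes Col1a1 and Col3a1 were higher in iWAT by 0.91 and 0.53, and the basement membrane collagen genes Col4a1 and Col4a2 differed by -0.78 and -0.92. Vcan, which encodes versican, averaged 3.23 in iWAT and 3.97 in eWAT.

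Markers of several cell types also differed between the tables. Adipocyte markers were abundant in both depots, between 8.19 and 13.92 log2 CPM in iWAT and between 7.81 and 13.99 in eWAT, with a median difference of -0.07. Of the 7, 1 was at least 2-fold higher in eWAT (Lep, -1.01) and 0 in iWAT. Mesothelial markers, of the cells that cover visceral fat, summed to 338 CPM in eWAT and 3.35 CPM in iWAT, and all 6 were at least 2-fold higher in eWAT. Their individual levels ran from -2.50 to 0.87 in iWAT and from 3.85 to 7.22 in eWAT. B cell and lymph node markers summed to 247 CPM in iWAT and 22.9 CPM in eWAT, with 8 of 8 higher in iWAT. T cell markers summed to 114 and 11.4 CPM, with 6 of 6 higher in iWAT. Of the markers of other epithelia, 3 of 6 had an average CPM of 1 in either depot. All 3 were keratin genes, Krt8, Krt14 and Krt18, and were higher in eWAT, with a median of -4.38. The epithelial markers Epcam and Cdh1, under that limit in both depots, went the other way and were higher in iWAT, and Krt5 was at or near the value of no read. Skeletal muscle markers had 2 of 5 above that limit, with a median of -0.32, and epididymis markers 1 of 5, with a difference of -1.77. The labels do not say whether the inguinal lymph node was removed. The part of these cells in the member differences was not tested.

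Mmp8, Mmp9 and Mmp25 are known products of neutrophils. Of 9 neutrophil markers, 5 had an average CPM of 1 in either depot, 4 of them at least 2-fold higher in iWAT and 1 in eWAT, S100a8, at 1.82 in iWAT and 3.13 in eWAT. The median difference of the 5 was 1.06. All 9 summed to 10.6 CPM in iWAT and 10.2 CPM in eWAT, and the 8 without S100a8 to 7.2 CPM and 1.64 CPM, while the defining marker Ly6g stood at -2.40 and -2.22, near the value of no read. Macrophage markers summed to 760 CPM in iWAT and 552 CPM in eWAT, with a median difference of 0.47. Of the 10, 8 were higher in iWAT, none by 2-fold, and 2 were at least 2-fold higher in eWAT, Trem2 and Mertk, with differences of -1.44 and -1.11. Fibroblast and adipocyte progenitor markers summed to 2740 CPM in iWAT and 2090 CPM in eWAT, with a median difference of 0.33, and 1 of 8, Pi16, was 2-fold higher in iWAT (1.97). Relative to that median of 0.33, the 6 MMPs kept their place in iWAT and 12 members in place of 7 were at least 2-fold higher in eWAT. Endothelial and mural markers had medians of -0.02 and 0.04. The part of neutrophils, macrophages and progenitors in the member differences was not tested.

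**Figure D4:**
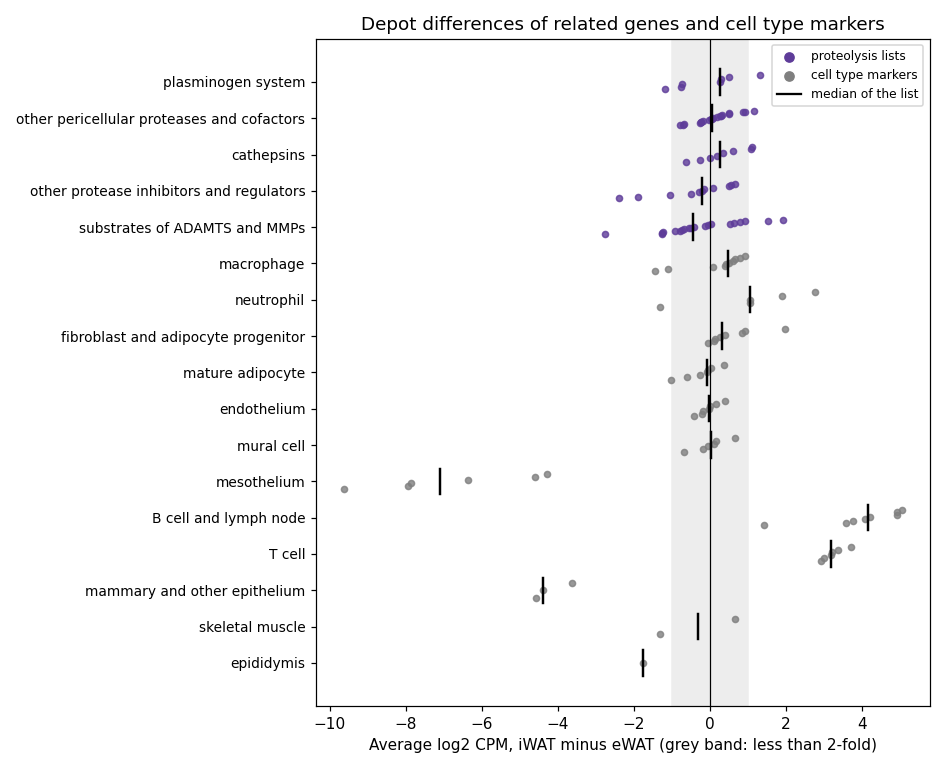
Difference in average log2 CPM, iWAT minus eWAT, of the genes of 5 proteolysis lists and 12 cell type marker lists with an average CPM of 1 in either depot (points) and the median of each list (bars); the grey band is less than 2-fold. The proteolysis lists have medians between -0.45 and 0.27, while mesothelial markers have a median of -7.10 and B cell and lymph node markers of 4.14.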

How the data were processed

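RNA was measured in 12 libraries, 3 per depot and treatment. Reads were trimmed with Trim Galore 0.6.4 and aligned to GRCm38 by the authors, low counts were filtered with DESeq2 1.32.0 and expression was compared with edgeR 3.34.0 (versions from the submitters' processing notes). The counting step and annotation are not given in the sources used here. The average log2 CPM of each gene, the unit used, was computed by the authors and deposited in 1 table per depot. The tables also hold the authors' own comparison of the treatments (fold change, likelihood ratio, p-value, FDR and calls), which was not used, and 12 columns of values per library, whose names match no sample; these were used in no step, so the depth of single samples is unknown here.

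The planned comparisons of counts per library (analog against saline in each depot, depot against depot, and their interaction) were therefore not run, and levels were described without a test. Members and lists were chosen with earlier results of these data known. Values were given for the TIMPs, the 10 most abundant members of each depot, the 5 with the largest difference in each direction, a set of well-known proteases and up to 3 members of each role class, and other members by counts and ranges; Mmp8, Mmp27, Mmp25 and Adamtsl2 were named within these.

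Genes with an average log2 CPM of 0 or more (an average CPM of 1) in either depot were compared, and called at a 2-fold difference. Reads behind an average were taken from the table minimum and a prior count of 2 per library. Of genes with 1 to 5 implied reads, 97% in iWAT and 99.8% in eWAT came within 0.1 of a whole number. Exon lengths, overlaps and shared 40-base stretches came from GENCODE vM21, with a length for 79.3% of all genes and for all 49 members; promoters came from RefSeq. Scripts (Python 3.11.15, pandas 2.3.3, scipy 1.17.1) were tested on simulated data. Other expression limits, 2 centrings, levels per length and removal of the prior count were tried.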

Additional observations from a re-analysis of the deposited data

How the results depend on the processing

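No paired analysis was possible because the columns of single libraries match no sample label and were used in no step; the planned comparisons of treatments and depots, with their other tools, filters, left-out replicates and replicate block, were therefore not run. With an average log2 CPM of 1 as the expression limit, 4 members were at least 2-fold higher in iWAT (without Mmp10 and Mmp25) and 6 in eWAT (without Adamts3). With a limit of -1, or with the median difference of all genes (0.01) taken off, the counts were 6 and 7. Relative to the median of the fibroblast and progenitor list (0.33), they were 6 and 12, the 5 added being Adamts16, Adamts7, Mmp12, Mmp23 and Timp2, and 3 members changed sign (Timp3, Adamts14 and Mmp11). Removing the prior count, an alternative chosen after seeing the data, gave 6 and 6, without Adamts3, which then fell below the expression limit; the fold differences of Mmp10 and Mmp25 grew by 3.67 and 1.88 times. Levels per kilobase leave the depot difference of a single gene unchanged by construction, but the TIMP share of the summed level moved from 45.9% in iWAT and 47.3% in eWAT to 36.8% and 50.4%. The averages mix both treatments, and their spread between mice is unknown.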
